A study of Mus musculus with 23 samples.

Results

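The 10 genes described here, S100a8, S100a9, Ngp, Camp, Lcn2, Ltf, Elane, Mpo, Retnlg and Cxcr2, are typical of neutrophils and were measured in dendritic cells (DCs) sorted from the spleen of mice. They were found by symbol among 47729 gene identifiers, and all 10 passed the filter on low expression. They were picked because earlier work on the same data had found neutrophil transcripts in libraries labelled TLI, so their levels in the groups are given as a description, and where the calls of fits across all genes are counted for them, those counts support nothing. All mice were wild type Balb/C. TLI is not spelled out in the labels and is the usual abbreviation of total lymphoid irradiation. Its dose, the time after it and the age of the mice are not given in the sources used here. Each library comes from a numbered pool of mice of unstated size, with 4 TLI pools and 2 untreated pools. By their labels the sorted populations were DC1a (CD8hi CD172-), DC1b (CD8Int CD172+), DC2 (CD8lo CD172hi) and DC3 (CD8- CD172lo). TLI pools 1 and 2 and both untreated pools belong to batch 1, and TLI pools 3 and 4 to batch 2, so batch 2 holds no untreated library. There are 15 TLI libraries (n = 4 for DC1a, DC1b and DC3 and n = 3 for DC2, which has no library of pool 2) and 8 untreated libraries (n = 2 for each population).

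Neutrophils carry their antimicrobial proteins in granules that are filled in stages while the cells mature in the bone marrow. Myeloperoxidase and elastase, the products of Mpo and Elane, go into the primary granules of promyelocytes, whereas lactoferrin (Ltf), cathelicidin (Camp), neutrophilic granule protein (Ngp) and lipocalin 2 (Lcn2) are made later, for the secondary granules. S100a8 and S100a9 form calprotectin, an abundant calcium- and metal-binding protein of the cytosol of neutrophils that monocytes also make, while Retnlg, which encodes a resistin-like secreted protein, and Cxcr2, the receptor for chemokines that call neutrophils into tissue, mark the later stages. Dendritic cells, which take up and present antigen, are not known for making the granule proteins.

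After TLI the genes were carried above all by the DC1b libraries, next by the DC2 libraries, and barely by DC3 and DC1a. Their summed level in TLI DC1b was 21718 CPM (counts scaled to a common library total) in pool 1, 1459.9 in pool 2, 1744 in pool 3 and 9208 in pool 4. In TLI DC2 it was 2335 CPM in pool 1, 216 in pool 3 and 110 in pool 4. In untreated mice the sum reached 21.4 CPM in DC1b pool 1 and stayed at or under 3.27 CPM in the 7 other libraries. The genes thus took 2.17% of all counts of the TLI DC1b library of pool 1 (95% Wilson interval 2.17 to 2.18) and 0.921% of that of pool 4 (0.918 to 0.924). These intervals treat each read as an independent draw and leave out the spread between pools. Amplified reads are not independent molecules, so the intervals are too narrow even for counting error. In RNA from many cells, the number of cells that carry these transcripts and their level per cell cannot be told apart.

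**Figure D1:**
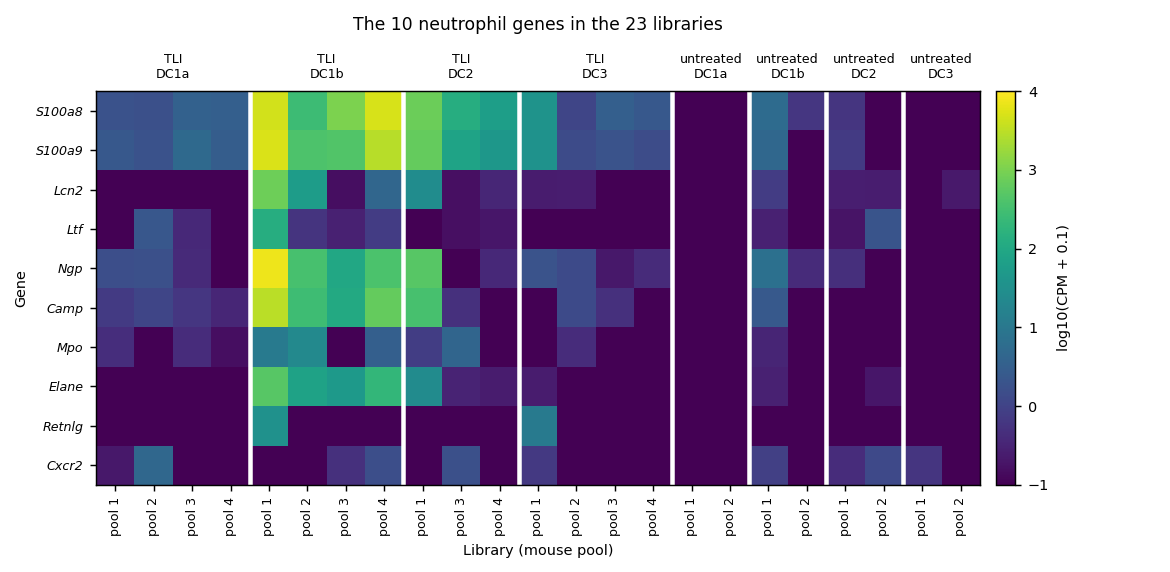
Heat map of the 10 genes (rows) in the 23 libraries (columns, by treatment, population and pool), coloured by log10(CPM + 0.1). The brightest block is formed by S100a8, S100a9, Ngp, Camp and Elane in the 4 TLI DC1b libraries, followed by the DC2 library of TLI pool 1, while most cells of the untreated libraries are at or near 0.

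Total counts ran from 21107794 to 36997890 in the TLI libraries and from 19256447 to 28688091 in the untreated ones. A floor of 3 counts corresponds to between 0.0811 and 0.156 CPM, and a gene at 0 is one with no count at that depth. All 7 genes of the classical DC list (Flt3, Zbtb46, Itgax, Cd74 and MHC class II genes) lay over the floor in all 23 libraries. For genes this abundant the floor is a low bar, and passing it does not show how pure a library was. Their sum was 11931 to 59762 CPM in TLI DC1b and 36462 to 46927 CPM in untreated DC1b, with overlap. In DC2 it was 30392 to 51188 CPM after TLI and 65794 to 71635 CPM in untreated mice, without overlap. For untreated mice, the study states that the sequenced populations were sorted by the gates of its flow cytometry, which excluded lineage-positive cells, with the neutrophil antigen Gr-1 among the lineage markers. Its sorting protocol lists antibodies to CD11c, B220, MHCII, CD8a and CD172a on cells enriched for CD11c and does not list Gr-1, and the sorts of TLI mice and of DC3 are not described in the sources used here.

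S100a8 (ENSMUSG00000056054, chr3:90668978-90670035, plus strand) and S100a9 (ENSMUSG00000056071, chr3:90692632-90695721, minus strand) are neighbours on chromosome 3, 22596 bp apart on assembly GRCm38. In TLI DC1b, S100a8 measured 4580.2 CPM in pool 1, 268 in pool 2, 1041 in pool 3 and 5005 in pool 4. S100a9 measured 5302, 396, 442 and 2943 CPM in the same order. Both were thus high in pools 1 and 4 and lower in pools 2 and 3, and every TLI library lay above both untreated DC1b libraries, which had 5.51 and 0.520 CPM of S100a8 and 4.66 and 0 CPM of S100a9. The mean of S100a8 was 2724 ± 2416 CPM (SD, n = 4) after TLI and 3.01 ± 3.53 CPM (n = 2) in untreated DC1b, a ratio of 904. The ratio was 974 for S100a9. Per kilobase of exon the pair led the set in TLI DC1b, with means of 4350.2 CPM per kb for S100a9 and 3925 for S100a8, ahead of Ngp at 1683, Camp at 1335 and Elane at 212.

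The secondary granule genes of TLI DC1b differed more between pools. Ngp (ENSMUSG00000032484, chr9:110419747-110423012, plus strand), a cathelicidin-like protein of secondary granules, measured 7397 CPM in pool 1, 353 in pool 2, 97.8 in pool 3 and 376 in pool 4. Camp (chr9:109847379-109849617, minus strand), the precursor of the antimicrobial peptide cathelicidin, measured 2979.8, 285, 111 and 672 CPM. Pool 1 was by far the highest for both, and every TLI DC1b library lay above the untreated DC1b libraries, whose highest values were 6.83 CPM for Ngp and 2.35 CPM for Camp. Lcn2 (chr2:32384633-32388252, minus strand), which binds bacterial siderophores and so withholds iron, measured 776 CPM in pool 1, 58.4 in pool 2, 0.0554 in pool 3 and 4.28 in pool 4. The value of pool 3 rests on 2 counts and lies under the floor, although S100a8 was at 1041 CPM in the same library. Ltf (chr9:111019271-111042767, plus strand), the iron-binding lactoferrin, was at 132 CPM in pool 1 and at 0.477, 0.194 and 0.684 CPM in the others, and thus was abundant in a single library. Camp, Ngp and Ltf lie on chromosome 9, with 1169653 bp between Camp and Ltf, whereas the others are spread over 6 further chromosomes.

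The primary granule genes were present as well. Elane (chr10:79886247-79888215, plus strand), the serine protease neutrophil elastase, measured 505 CPM in pool 1, 75.7 in pool 2, 51.6 in pool 3 and 202 in pool 4 of TLI DC1b, against 0.188 and 0 CPM in untreated DC1b. Mpo (chr11:87793581-87804413, plus strand), which makes hypochlorous acid from hydrogen peroxide, measured 11.5, 22.3, 0 and 3.12 CPM. All 4 libraries held Elane far over the floor, while Mpo stayed under 25 CPM and had no count in pool 3. The reads of Mpo are uncertain, because Gm11505 lies across it on the opposite strand, and no source says that reads were assigned by strand. Per kilobase of exon, the mean was 2.69 CPM per kb for Mpo, below the 212 of Elane, and Lcn2 averaged 79.9 and Ltf 9.70 CPM per kb. The genes of late neutrophils were sparse. Retnlg (chr16:48872621-48874496, plus strand) had 33.6 CPM in pool 1 and 0 in the 3 other pools. Cxcr2 (chr1:74153989-74161246, plus strand) had 0, 0, 0.388 and 1.49 CPM, which overlap the 0.80 and 0 CPM of untreated DC1b. With means of 14.2 CPM per kb for Retnlg and 0.154 for Cxcr2 in TLI DC1b, Cxcr2 was the lowest of the 10 genes per length there.

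In the DC2 cells of TLI mice the genes followed pool 1. S100a8 measured 762 CPM in pool 1, 131 in pool 3 and 64.7 in pool 4, and S100a9 measured 672, 78.7 and 45.0 CPM. Ngp measured 491 CPM in pool 1 but 0 in pool 3 and 0.276 in pool 4, and Camp 357, 0.392 and 0 CPM. In pools 3 and 4 the calprotectin genes were therefore present almost without the granule genes. Elane (25.3, 0.211 and 0.138 CPM) and Lcn2 (26.8, 0.0603 and 0.241 CPM) showed the same split between pool 1 and the batch 2 pools, whereas Mpo was highest in pool 3, at 4.13 CPM. The mean of S100a8 was 319 ± 385 CPM (SD, n = 3) against 0.244 ± 0.345 CPM (n = 2) in untreated DC2, a ratio of 1308, and for S100a9 the ratio was 869. Camp had no count in untreated DC2 and was at least 857-fold higher in the mean of the TLI libraries, taking the floor of 3 counts for each untreated library, but this rests on pool 1. Ltf went the other way, at or under 0.103 CPM in the 3 TLI libraries and at 0.0814 and 1.87 CPM in the untreated pools, with overlapping groups.

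DC3 cells held the genes in quantity in a single library. S100a8 measured 37.1 CPM in TLI pool 1 and 0.997, 3.09 and 2.25 CPM in pools 2 to 4, and S100a9 measured 34.8, 1.29, 1.79 and 1.37 CPM. Retnlg reached 11.2 CPM in pool 1 and had no count in the 3 other pools. The DC3 library of pool 1 was thus rich in Retnlg relative to Ngp (1.80 CPM) and Camp (0 CPM), unlike the DC1b library of the same mice. Both calprotectin genes were at 0 in untreated DC3, so that the mean level after TLI was at least 85.6-fold higher for S100a8 and at least 77.2-fold higher for S100a9. Without pool 1, the summed level of the 10 genes in TLI DC3 fell from a mean of 25.1 to 4.84 CPM.

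DC1a cells had the lowest mean and the smallest SD of the summed level among the TLI populations. By library, TLI DC3 lay lower in pools 2 to 4, where its sums were 5.21, 5.38 and 3.93 CPM. In DC1a, S100a8 measured 1.69, 1.58, 3.41 and 3.23 CPM in TLI pools 1 to 4, and S100a9 2.32, 1.69, 5.08 and 2.88 CPM. Lcn2, Elane and Retnlg had no count in any of the 4 libraries. In both untreated DC1a libraries all 10 genes had no count, with floors of 0.105 and 0.116 CPM, and the lower bound of the ratio was 22.5 for S100a8 and 27.2 for S100a9. The summed level was 6.58, 12.6, 9.89 and 6.41 CPM in pools 1 to 4, a mean of 8.88 ± 2.98 CPM (SD, n = 4). Pool 2 stood highest there through Cxcr2 (4.60 CPM) and Ltf (2.21 CPM) rather than through S100a8.

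**Figure D2:**
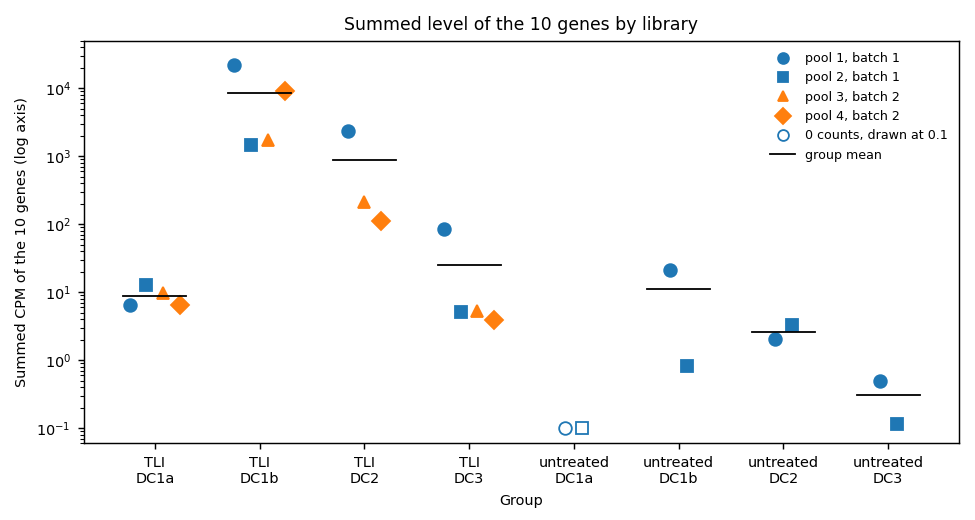
Summed CPM of the 10 genes (vertical log axis) for each library, by group (horizontal axis), with batch 1 and batch 2 told apart by the marker. TLI DC1b lies between 1459.9 and 21718, TLI DC2 between 110 and 2335, and the untreated libraries at 21.4 or less.

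By summed level the groups ran from TLI DC1b (8532 ± 9494 CPM, SD, n = 4) over TLI DC2 (887 ± 1255, n = 3), TLI DC3 (25.1 ± 40.5, n = 4), untreated DC1b (11.1 ± 14.6, n = 2), TLI DC1a (8.88 ± 2.98, n = 4), untreated DC2 (2.65 ± 0.875, n = 2) and untreated DC3 (0.309 ± 0.271, n = 2) to untreated DC1a at 0. The SDs of DC1b and DC2 exceeded their means, and the ranges of these neighbours overlapped through DC2 of pool 1, which lay above DC1b of pools 2 and 3. Within each pool DC1b was the highest and, in the 3 pools that have it, DC2 came next. DC1b exceeded DC2 by 9.30-fold in pool 1, 8.08-fold in pool 3 and 83.4-fold in pool 4, and it exceeded DC3 by 253-fold, 280-fold, 324-fold and 2343-fold in pools 1 to 4. Even the lowest DC2 library (110 CPM) lay above the highest DC3 library (85.8 CPM). TLI DC3, TLI DC1a and untreated DC1b overlapped and could not be ordered, and both untreated DC2 libraries lay below the 4 TLI DC1a libraries.

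The untreated DC1b library of pool 1 held the most of the genes among the untreated libraries, with 9 of the 10 over the floor, followed by untreated DC2 pool 1 with 5, at no more than 0.610 CPM each. In the DC1b library the counts amounted to 0.111% of those of TLI DC1b pool 1 for S100a8, 0.0809% for S100a9, 0.085% for Ngp, 0.0727% for Camp and 0.0782% for Lcn2. Elane was lower, at 0.0343% on 4 counts, Mpo stood higher, with 0.235 CPM against 11.5 CPM, and Cxcr2 had 0.80 CPM in the untreated library and no count in TLI DC1b pool 1. For comparison, the shares for TLI DC2 pool 1 were 17.0%, 12.9%, 6.77%, 12.2% and 3.52%, and for TLI DC3 pool 1 they were 0.742%, 0.600% and 0.0223% for S100a8, S100a9 and Ngp, with no count of Camp. What gives the untreated library these counts was not tested.

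**Figure D3:**
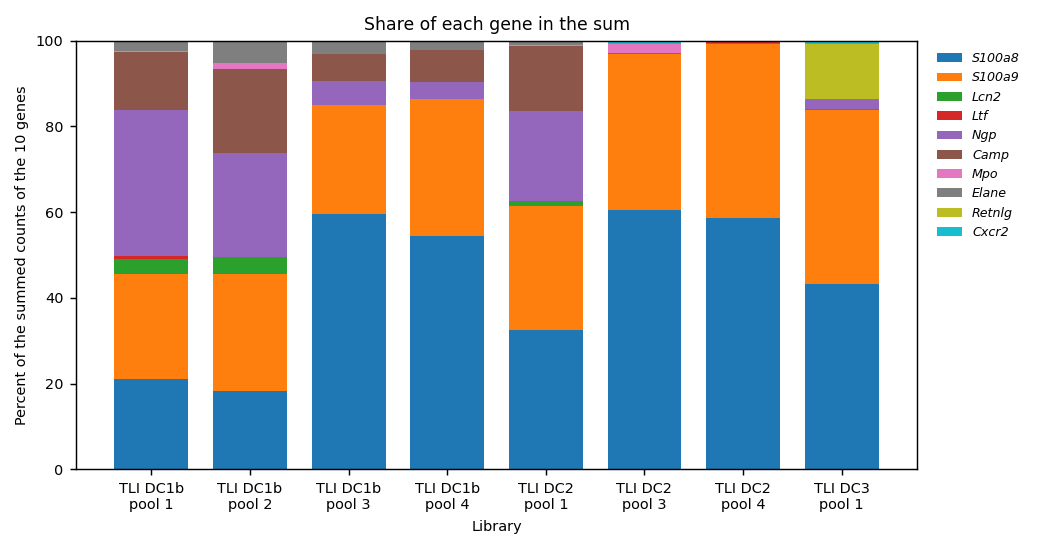
Stacked bars of the share of each gene in the summed counts of the 10 genes (vertical axis, percent, from 0 to 100), for the libraries with a summed level of at least 50 CPM. Ngp and Camp take large shares in the batch 1 libraries of DC1b and DC2, and S100a8 and S100a9 take most of the sum in the batch 2 libraries, with 59.7% and 25.3% in DC1b pool 3 and 58.6% and 40.7% in DC2 pool 4.

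The mixture of genes differed between the batches of TLI mice. In DC1b, S100a8 and S100a9 made up 21.1% and 24.4% of the sum in pool 1 and 18.4% and 27.2% in pool 2, but 59.7% and 25.3% in pool 3 and 54.4% and 32.0% in pool 4. Ngp went from 34.1% and 24.2% in pools 1 and 2 to 5.61% and 4.08% in pools 3 and 4. The ratio of S100a8 to Ngp counts was accordingly 0.619 and 0.760 in batch 1 and 10.6 and 13.3 in batch 2, without overlap, and Lcn2 took 3.57% and 4.00% of the sum in batch 1 and 0.0032% and 0.0465% in batch 2. Elane did not follow this split, with 2.33%, 5.19%, 2.96% and 2.20% in pools 1 to 4. DC2 showed the same contrast, since S100a8 and S100a9 together with Ngp and Camp shared the sum of pool 1 (32.6%, 28.8%, 21% and 15.3%), whereas in pool 4 S100a8 and S100a9 took 58.6% and 40.7%. A batch here is 2 pools of TLI mice, so that batch and mice cannot be told apart, and 17.4% of all genes tested differed between the batches (edgeR's quasi-likelihood test, adjusted p under 0.05). That test counts libraries of the same pool as independent, although each batch holds only 2 pools, so its p-values are likely too small.

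**Figure D4:**
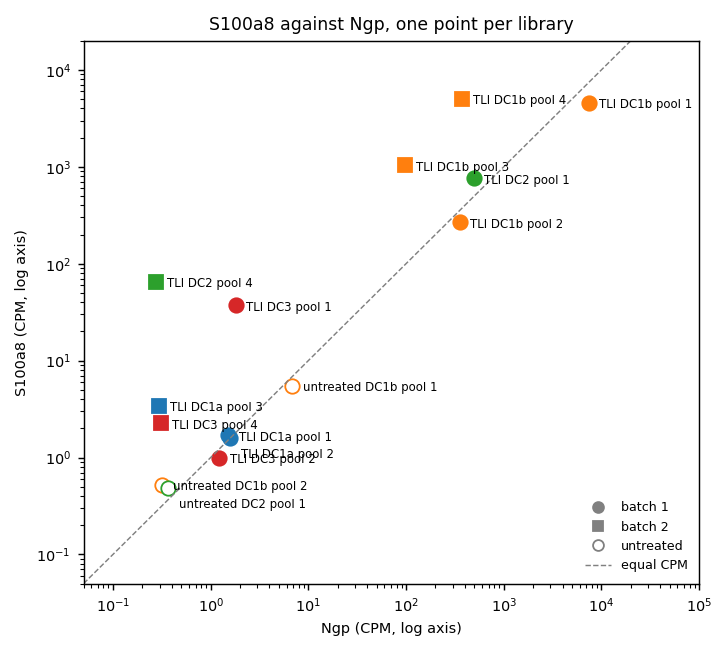
S100a8 against Ngp in CPM (both axes logarithmic) for the 15 libraries with both genes over the floor of 3 counts, coloured by population, with circles for batch 1, squares for batch 2, open symbols for untreated mice and a dashed line of equal CPM. The DC1b libraries of batch 1 lie near the line, and those of batch 2 lie 10.6-fold and 13.3-fold above it.

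In the fit across 19597 genes (quasi-likelihood test of edgeR, threshold 0.05 on the p adjusted by Benjamini and Hochberg's method), none of the 10 genes was called between TLI and untreated mice in any population, beside 0.413% of all genes in DC1b, 0.0612% in DC2, 0.0255% in DC3 and 0.0102% in DC1a. With an unadjusted p under 0.05, 7, 7, 3 and 3 of the 10 passed in the same order, beside 12.4%, 9.01%, 10.4% and 9.76% of all genes. DESeq2 called 8, 5, 5 and 4 of the 10, beside 6.44%, 4.55%, 3.73% and 3.82%. Without the filter on low expression edgeR called 6, 6, 2 and 1, beside 0.406%, 0.175%, 0.146% and 0.0754% of 41095 genes. Leaving out TLI pool 2 or pool 3 gave 1 call in DC1b, beside 55 of 19487 and 74 of 19402 genes. Leaving out any other single TLI library gave none in any population. The biological coefficient of variation of the fit was 1.08. Every TLI library exceeded every untreated library for 6 of the 10 genes in DC1b (S100a8, S100a9, Ltf, Ngp, Camp and Elane), beside 3.13% of all genes with a count. In DC2, DC3 and DC1a this held for 3 each, beside 7.03%, 2.11% and 3.31%. Among the 4 TLI populations 6 genes were called (S100a8, S100a9, Lcn2, Ngp, Camp and Elane), beside 3.22% of all genes, and with the pool as a block 5, beside 2.2%. Without TLI pool 3 there were 3, beside 261 of 19015 genes, and without TLI pool 4 there were 2, beside 224 of 19081. The effect of TLI was called different among populations for 0 of the 10 by edgeR and by DESeq2, with 0 at an unadjusted p under 0.05 in edgeR, beside 0.0357%, 2% and 7.82% of all genes. In the comparison of the batches of TLI pools, libraries of the same pool counted as independent. Lcn2 and Ngp were called there, both lower in batch 2, beside 17.4% of all genes in either direction and 8.07% lower. Without TLI pool 1 none was called in that comparison (2 at an unadjusted p under 0.05), beside 2366 of 18922 genes (5238 unadjusted). Without pool 2 there were 3, beside 1679 of 19255. Without pool 3 or pool 4 there was 1, beside 2186 of 19015 and 1624 of 19081. Because the genes were picked for their levels in these libraries, the counts describe them and support nothing further.

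Of the other genes that neutrophils are known for, some were high in the same libraries, some were absent and some were no higher than in untreated mice. In a list of 24 further granule genes, of which 18 could be tested, Lyz2 and Pglyrp1 passed the threshold in DC1b and none did in DC2, DC3 or DC1a (edgeR; 11, 3, 0 and 1 at an unadjusted p under 0.05 and 10, 5, 2 and 2 by DESeq2, in the order DC1b, DC2, DC3, DC1a). Beside them stand 12.4%, 9.01%, 10.4% and 9.76% of all genes at an unadjusted p under 0.05 and 6.44%, 4.55%, 3.73% and 3.82% by DESeq2. At the adjusted threshold of edgeR the shares of all genes were 0.413%, 0.0612%, 0.0255% and 0.0102%. Lyz2, the lysozyme of neutrophils, monocytes and macrophages, measured 18205, 23476, 7986 and 6898 CPM in TLI DC1b pools 1 to 4 against 1929 and 3169 CPM in untreated DC1b. All 4 TLI libraries lay above both untreated ones, and the log2 fold change, adjusted for batch, was 3.29 (SE 0.33, adjusted p = 0.000347). Its change differed among the populations (edgeR interaction, adjusted p = 0.0323), with fitted log2 fold changes of 0.85 in DC1a, 1.45 in DC2 and 0.34 in DC3. These are adjusted for batch, and in DC3 the mean CPM went the other way, at 1580 ± 1037 (SD, n = 4) after TLI and 1976 ± 861 (n = 2) in untreated mice. Pglyrp1, a peptidoglycan-binding protein of granules, rose from 65.4 and 54.6 CPM to between 158 and 239.7 CPM in DC1b, a log2 fold change of 2.22 (SE 0.44, adjusted p = 0.0333 by edgeR). High levels of both genes were not limited to TLI mice. Untreated DC2 held 176 and 227 CPM of Pglyrp1 and 4790 and 5377 CPM of Lyz2. The call of Pglyrp1 was lost in 8 of 12 alternatives, among them leaving out any library of the comparison other than TLI pool 3 (edgeR, adjusted p up to 0.30), and that of Lyz2 in the fit with no batch term alone (adjusted p = 0.184). The difference of Lyz2 among populations was lost in 5 of 10 alternatives, without TLI pool 2, 3 or 4 (adjusted p of 0.0675, 0.183 and 0.238) among them. The median log2 ratio of mean CPM, with groups at or under the floor set to it, was 3.82 over the 20 granule genes of the list that rose over the floor in a DC1b library, beside -0.40 over all genes, and 9.24 over the 10 genes above. It was 1.17 in DC2, -0.15 in DC3 and -0.12 in DC1a, beside -0.22, -0.14 and -0.01 over all genes. Several other granule genes were at 0 in most libraries, and Mmp9, the gelatinase of tertiary granules, was at or under 0.650 CPM in TLI DC1b. Prtn3, Ctsg and Ms4a3, which accompany Mpo and Elane in early precursors and are named here after their values were seen, reached 66.9, 50.7 and 122 CPM in TLI DC1b and, like Mpo, were at 0 in pool 3. Ctsg and Ms4a3 were not limited to TLI mice, since the untreated DC3 library of pool 1 held 60.8 CPM of Ctsg and 11.8 CPM of Ms4a3. Prtn3 had no count in any untreated library. Prtn3 overlaps Plppr3, and the reads of the pair may be mixed.

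None of 16 receptor and surface genes of neutrophils, of which 15 were tested, passed the threshold in any population (edgeR; 7, 2, 0 and 4 at an unadjusted p under 0.05 and 4, 1, 2 and 3 by DESeq2, in the order DC1b, DC2, DC3, DC1a), beside the same shares of all genes, 12.4%, 9.01%, 10.4% and 9.76% at an unadjusted p. The adjusted threshold was passed by 0.413%, 0.0612%, 0.0255% and 0.0102% of all genes, and DESeq2 called 6.44%, 4.55%, 3.73% and 3.82%. Of the receptor genes with the highest mean level in TLI libraries, Ifitm6 and Il1r2 are also expressed by other leukocytes. Ifitm6 measured 237, 154, 378 and 717 CPM against 67.9 and 102 CPM (log2 fold change 1.5, SE 0.50, adjusted p = 0.228 by edgeR). Il1r2, a decoy receptor for interleukin 1, overlapped between the groups, with 27.2, 88.8, 4.98 and 0.149 CPM against 25.7 and 104 CPM. Ly6g, the gene of the neutrophil antigen Ly6G and chosen here after its values were seen, measured 106 CPM in TLI DC1b pool 1, 3.92 in pool 2, 0.111 in pool 3 and 0.0893 in pool 4. Within TLI DC1b it was thus high in the library that was also rich in Ltf and Retnlg. This did not hold in other populations. TLI DC2 pool 1 had 13.1 CPM of Ly6g and no count of Ltf or Retnlg. TLI DC3 pool 1 had 11.2 CPM of Retnlg and no count of Ly6g. Untreated mice also had counts of Ly6g, at 0.283 and 0.320 CPM in DC1b, above TLI DC1b of pools 3 and 4. The untreated DC1a library of pool 1 held 3.17 CPM of Ly6g and no count of any of the 10 genes. Csf3r, the receptor for G-CSF, measured 7.93, 18.0, 31.3 and 13.8 CPM in TLI DC1b, 2.35 and 0 CPM in untreated DC1b and 35.2 CPM in untreated DC2 of pool 2, the highest of these libraries. The median log2 ratio of mean CPM over the receptor list, with the floor as above, was 2.53 in DC1b, 1.07 in DC2, 1.23 in DC3 and -0.09 in DC1a.

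**Figure D5:**
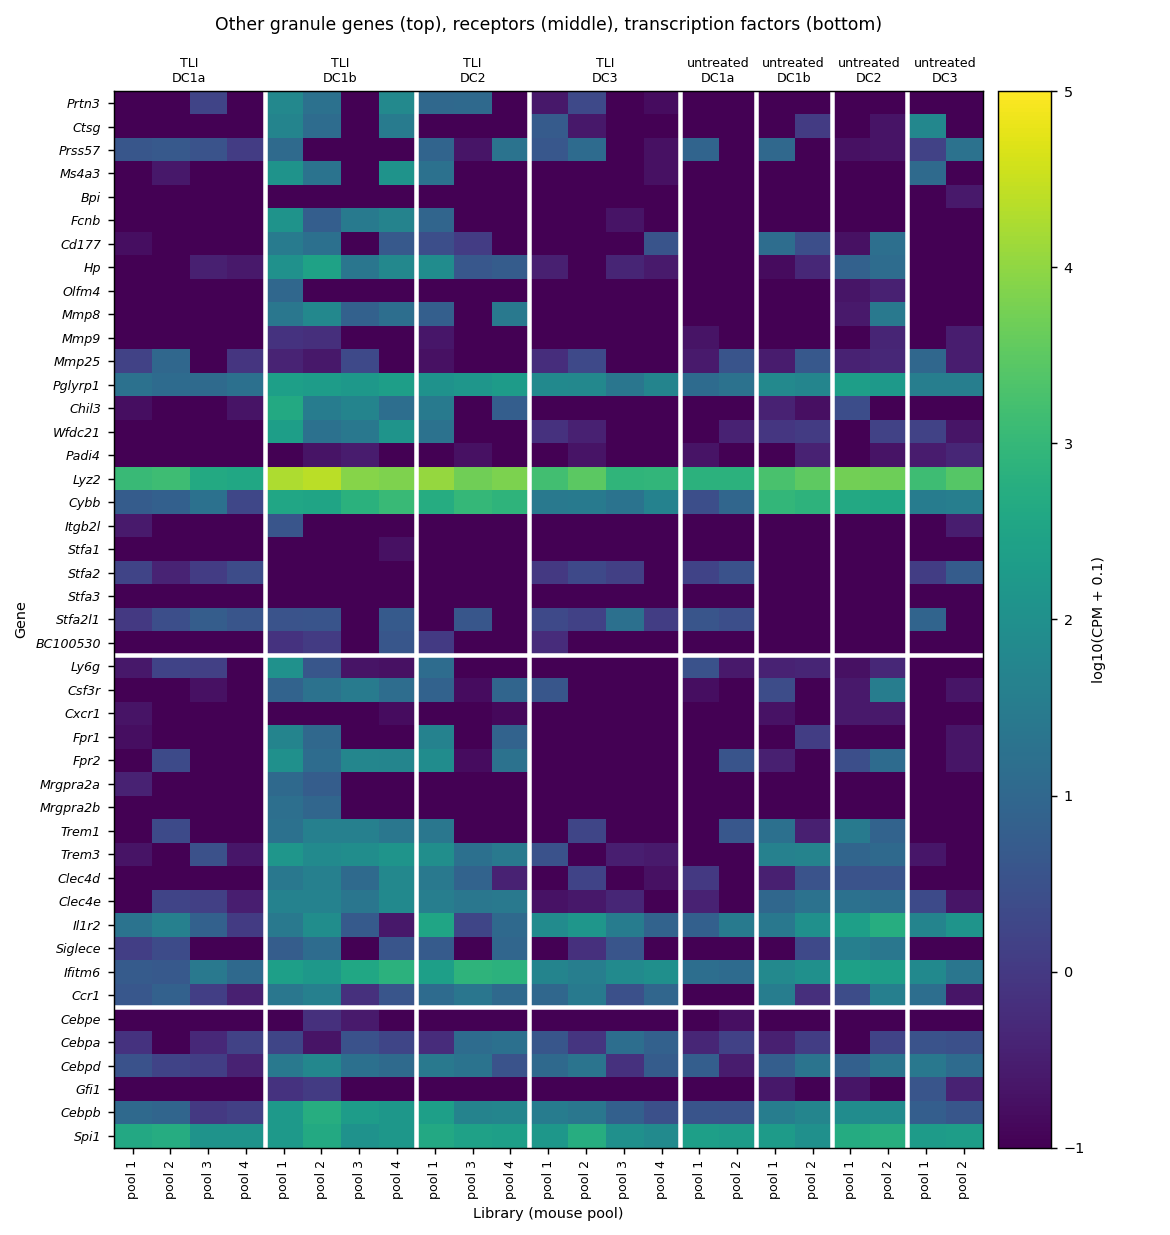
Heat map of 24 further granule genes (top), 15 of the 16 receptor and surface genes (middle) and 6 transcription factors (bottom) in the 23 libraries (columns), coloured by log10(CPM + 0.1). Lyz2 is the brightest row in all groups, Fcnb, Chil3, Wfdc21 and Hp are bright in TLI DC1b and in the DC2 library of TLI pool 1 and dimmer in most others, and Cxcr1, Stfa3 and Cebpe are at or near 0 throughout.

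Among 6 transcription factors of granulocytes, of which 5 were tested, Cebpb passed the threshold in DC1b and none did in the other populations (edgeR; 2, 1, 2 and 1 at an unadjusted p under 0.05 and 2, 0, 1 and 0 by DESeq2, in the order DC1b, DC2, DC3, DC1a), again beside 12.4%, 9.01%, 10.4% and 9.76% of all genes at an unadjusted p. The shares of all genes were 0.413%, 0.0612%, 0.0255% and 0.0102% at the adjusted threshold and 6.44%, 4.55%, 3.73% and 3.82% by DESeq2. Cebpb, which acts in monocytes and in granulocyte production under stress, measured 164, 538, 204 and 148 CPM in TLI DC1b and 35.2 and 53.4 CPM in untreated DC1b, a log2 fold change, adjusted for batch, of 4.04 (SE 0.67, adjusted p = 0.0122). The fitted value ran from 2.86 to 4.55 over 12 alternatives, beside means of 263 ± 184 CPM (SD, n = 4) and 44.3 ± 12.8 CPM (n = 2). This call was lost without untreated pool 1 (edgeR, adjusted p = 0.218), without untreated pool 2 (0.112), in batch 1 alone (0.0763) and with no batch term (0.436). The median log2 ratio of mean CPM over the 6 factors was 1.18 in DC1b, with the floor as above, and between -0.03 and 0.38 in the other populations. Cebpe, the factor that drives secondary granule genes, was at 0.586 CPM or less in TLI DC1b, and Gfi1 at 0.990 CPM or less.

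The 10 genes outside the set whose level was most like the mean of the set (Pearson's r of log2(CPM + 1) over 23 libraries, given as a description across libraries that share mice and batches, among 12954 genes with at least 10 CPM in 1 library) were Fcnb (0.94), Wfdc21 (0.94), Chil3 (0.93), Igf1 (0.89), Tfec (0.88), Gm1673 (0.88), Ccdc125 (0.87), Col14a1 (0.86), Hp (0.86) and Prtn3 (0.86). Of these, 5 are on the list of 24 further granule genes, which was chosen with earlier results of these data known, so the overlap supports nothing. Others on that list were far from the set, such as Prss57 (0.05) and Stfa2l1 (0.07). Fcnb, a ficolin of neutrophil granules, measured 122, 6.05, 28.3 and 48.9 CPM in TLI DC1b and had no count in any untreated library. Chil3, a chitinase-like protein of neutrophils and macrophages, measured 437, 32.1, 51.7 and 14.8 CPM in TLI DC1b. Wfdc21 had 225, 17.0, 25.7 and 128 CPM there. All 3 were thus highest in pool 1, as were Ngp, Camp and Lcn2. With Spearman's rho 1 of the 10 stayed among the closest, and with a pseudocount of 0.1 there were 8.

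Markers of other cells moved between the same groups. The summed level of 7 erythroid genes, led by the hemoglobin genes Hba-a1, Hbb-bs and Hba-a2, was 62469, 23493, 2034 and 7144 CPM in TLI DC1b pools 1 to 4 against 75.2 and 109 CPM in untreated DC1b. The erythroid genes were also high in the TLI libraries of DC1a pool 1 (112489 CPM) and DC3 pool 1 (133566 CPM), in which the 10 neutrophil genes summed to 6.58 and 85.8 CPM. The summed level of 7 macrophage genes, led by C1qb, Hmox1 and C1qc, was 1871, 1694, 216 and 86.1 CPM in TLI DC1b and 31.5 and 47.7 CPM in untreated DC1b, and 2077 CPM in TLI DC2 of pool 1 beside 52.3 and 147 CPM in pools 3 and 4. For 8 genes of monocytes, which also make S100a8 and S100a9, the range was 1692 to 2331 CPM in TLI DC1b and 2057 to 2924 CPM in untreated DC1b, with overlap. In DC2 the monocyte genes summed to 2017, 3446 and 3620 CPM in TLI pools 1, 3 and 4 and to 958 and 1008 CPM in untreated mice, without overlap. In the list of 5 plasmacytoid DC genes the untreated DC1b libraries held 5456 and 7746 CPM and the TLI DC1b libraries 37.5 to 115 CPM. Of the 6 genes fixed as defining neutrophils (Ly6g, Csf3r, Cxcr2, Mmp9, S100a8 and S100a9), 4 or 5 were over the floor in each TLI DC1b library, as in the untreated libraries of DC1b pool 1 (5) and DC2 (4 in both). Mmp9 was at or under the floor in every TLI DC2, DC3 and DC1a library. Their part in the levels of the 10 genes was not tested.

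The upstream sequences of 4 genes are shown because they carry the set's highest levels (S100a8, S100a9 and Ngp) or lie with Ngp on chromosome 9 and were abundant in a single library (Ltf). They come from RefSeq on GRCm38.p6 and are written 5′ to 3′ on the strand of the gene, ending before the earlier of the annotated starts of transcription. The second match of Ngp lies past the end of the stretch shown. Capitals mark matches to TTGCNNAA or its reverse complement TTNNGCAA, letters of the element bound by C/EBP factors.
S100a8, chr3:90668821-90668977, plus strand: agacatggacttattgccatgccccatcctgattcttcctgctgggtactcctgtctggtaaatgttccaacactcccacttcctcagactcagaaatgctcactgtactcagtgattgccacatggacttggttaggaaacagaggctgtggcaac
S100a9, chr3:90695722-90695971, minus strand: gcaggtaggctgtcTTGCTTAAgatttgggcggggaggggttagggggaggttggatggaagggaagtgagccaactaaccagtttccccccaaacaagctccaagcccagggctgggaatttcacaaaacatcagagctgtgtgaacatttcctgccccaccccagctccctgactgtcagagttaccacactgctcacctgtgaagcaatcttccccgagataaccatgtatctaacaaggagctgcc
Ngp, chr9:110419558-110419746, plus strand: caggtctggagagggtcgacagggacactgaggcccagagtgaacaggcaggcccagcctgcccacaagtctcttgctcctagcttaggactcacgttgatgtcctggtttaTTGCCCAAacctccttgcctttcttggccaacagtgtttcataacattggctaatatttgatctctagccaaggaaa
Ltf, chr9:111019042-111019270, plus strand: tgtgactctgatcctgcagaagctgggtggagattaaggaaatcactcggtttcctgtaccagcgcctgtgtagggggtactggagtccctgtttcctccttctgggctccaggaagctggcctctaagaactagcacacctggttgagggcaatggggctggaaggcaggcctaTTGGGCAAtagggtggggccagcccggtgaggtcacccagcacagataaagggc

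All 10 genes had an entry in the promoter table. In the 250 bases before the RefSeq start, the C/EBP letters occurred on either strand in 5 of the 10 genes (S100a9, Lcn2, Ltf, Ngp and Retnlg), beside 9.56% of 32851 promoters of the same length. The letters GAGGAA, bound by the myeloid factor PU.1, or their reverse complement TTCCTC occurred in 6 of the 10 beside 23.3%, and TATAAA or its reverse complement TTTATA in 1, S100a8, beside 12.4%. S100a8 and S100a9 differed in the C/EBP letters although their levels went together across libraries. A match describes letters in a window and not a bound site, and the genes were not picked independently of their function.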

How the data were processed

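Cells were sorted from spleens, their cDNA was amplified from small numbers of cells (SMARTseq v4), and libraries were sequenced on an Illumina HiSeq. The authors trimmed reads with Trimmomatic, used HISAT2 for alignment to GRCm38 and StringTie with the Ensembl release 84 annotation to make the deposited values, which are estimated counts per gene, whole and scaled for neither depth nor length. The design had assumed plain counts, and no rounding was needed. All 23 libraries have a group in the labels, and no column was left unused.

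Levels are CPM over the library total. Symbols and positions come from GENCODE M21 (GRCm38), which named 47224 of the 47729 identifiers. Differences were tested with edgeR 4.0.16 in R 4.3.3 (TMM factors, filter on low expression, groups plus batch in a single fit of 23 libraries, quasi-likelihood test, Benjamini-Hochberg adjustment over 19597 genes), with DESeq2 1.42.0 as an alternative, and the scripts were tested on simulated data. The batch term is estimated from the TLI pools alone, so that a TLI effect refers to batch 1. Alternatives were DESeq2's test, its size factors, no filter, no batch term, fewer libraries, replicate blocks, TMM-scaled CPM, another likeness measure and leaving out each library or TLI pool.

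Libraries with the same TLI pool number come from the same mice by their labels. Their deviations from the group means correlated at 0.0944 to 0.595 over genes (median 0.243), beside 0.0952 to 0.445 for other pools of the same batch. The pool was therefore a block in an alternative fit of the TLI populations.

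The 10 genes and the lists of other genes were chosen with earlier results of these data known. Named beyond them were genes of the lists past the threshold, or the 3 highest where none passed, the 10 genes of most similar level and the 3 highest genes of marker lists. P-values measure the spread between libraries within groups. Libraries of the same pool count as independent, except in the fits with a replicate block. The values of 1 gene of the receptor list are not reported here, though it counts in the list.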

Additional observations from a re-analysis of the deposited data

Results flagged for a closer look

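In groups of 4 libraries, 1 library stood apart from the 3 others by Dixon's test at the 95% level for 12 of 28 sets of values, where chance flags about 1 in 20 groups. The sets are not independent, since the genes share libraries, and 4 of the 12 arise because the 3 other libraries are all at 0, so the count cannot be read against chance. The TLI DC3 library of pool 1 stood apart for the sum of the 10 genes (85.8 CPM), S100a8 (37.1 CPM), S100a9 (34.8 CPM), Retnlg (11.2 CPM) and Cxcr2 (0.569 CPM). The TLI DC1b library of pool 1 stood apart for Ngp (7397 CPM), Lcn2 (776 CPM), Ltf (132 CPM) and Retnlg (33.6 CPM), but not for S100a8, S100a9, Camp or Elane. The TLI DC1a library of pool 2 stood apart for Cxcr2 (4.60 CPM, 125 counts) and Ltf (2.21 CPM, 60 counts). The TLI DC3 library of pool 2 stood apart for Mpo (0.332 CPM, 9 counts). The change of Lyz2 with TLI differed among the 4 populations (edgeR interaction, adjusted p = 0.0323), a call lost in 5 of 10 alternatives (adjusted p up to 0.881).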

How the results depend on the processing

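The order of the groups by summed level of the 10 genes rests on few libraries. Leaving out 1 library moved the mean of TLI DC1b between 4137 and 10890.0 CPM, of TLI DC2 between 163 and 1276, of TLI DC3 between 4.84 and 32.1 and of TLI DC1a between 7.63 and 9.71, and TMM scaling gave 9432, 823, 25.7 and 10.1 CPM.

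Counts of genes called are given in the order DC1a, DC1b, DC2 and DC3 for TLI against untreated mice (2, 81, 12 and 5 by edgeR), then for differences among TLI populations (632), for the difference of the TLI effect among populations (7) and for batch (3413). DESeq2 called 748, 1263, 892, 730, 1972, 392 and 5926. Without a filter there were 31, 167, 72, 60, 1296 and 96 calls, and without a batch term 0, 19, 7, 2, 354 and 3, in the same order without batch. Batch 1 alone gave 4 in DC1b, 7 in DC2 and 2 in DC3. Leaving out 1 library gave 0 to 1, 3 to 100, 6 to 43 and 2 to 7 calls, with 3 in DC1b without untreated pool 1 and 11 without untreated pool 2. Leaving out 1 TLI pool gave 224 to 506 calls among populations, 2 to 22 for the difference of effects and 1624 to 2366 for batch. The causes of these shifts were not tested.

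With the TLI pool as a replicate block 360 genes were called among TLI populations. TLI and untreated pools share only a number, and with that number as a replicate block the counts were 0, 90, 9 and 4, and 7 for the difference of effects, with 3 of the 10 genes called in DC1b and none elsewhere. Deviations of the same number in TLI and untreated libraries correlated at -0.0427 to 0.0651. Of the 10 genes of most similar level 1 remained with Spearman's rho. TMM scaling changed the order of TLI DC1a (8.88 to 10.1 CPM) and untreated DC1b (11.1 to 9.44 CPM), and the fold changes of Lyz2, Pglyrp1 and Cebpb in DC1b kept their sign in 12 alternatives each. The balance of calls did shift. Batch gave 1832 genes higher and 1581 lower in batch 2 with TMM, 1547 and 1949 with DESeq2's size factors (where the median log2 difference of all genes went from -0.23 to -0.37), 1084 and 1609 without a filter and 2316 and 3610 by DESeq2. TLI in DC1b gave 39 higher and 42 lower, against 97 and 70 without a filter and 834 and 429 by DESeq2.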
